A study of Mus musculus with 12 samples.

Results

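The genes described here carry retinoic acid and its precursor retinol, remove them, or sense retinoic acid in the nucleus. They are Rbp4, Stra6, Crabp1, Crabp2, Dhrs3, Cyp26a1, Cyp26b1, Rara and Rarb, 9 genes taken by their symbols from a table of 20368 genes measured in mouse embryonic hearts. All 9 were found, and the rule that took them uses names and no measured value. The names themselves were chosen with earlier results of these data known. Rara and Rarb code for receptors and neither transport nor degrade retinoic acid.

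Retinoic acid is made inside cells from retinol (vitamin A) and acts as a ligand of nuclear receptors. RBP4 carries retinol in the blood, and STRA6 is the membrane receptor that takes retinol up from RBP4. RDH10 oxidises retinol to retinaldehyde and DHRS3 reduces retinaldehyde back, while ALDH1A2 makes retinoic acid from it. CRABP1 and CRABP2 bind retinoic acid in the cytoplasm, and the CYP26 enzymes oxidise it for removal. The receptors RARA and RARB, paired with an RXR, bind direct repeats of a short DNA word, and Rarb, Cyp26a1 and Dhrs3 are among the genes known to respond to the ligand. In the developing heart the epicardium is a known source of retinoic acid.

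RNA-seq was made from whole embryonic hearts of CD1 mice at 2 stages, E11.5 and E12.5, with 3 libraries in each of 4 groups. HIRA is a chaperone that deposits the histone variant H3.3, and the comparison asks what its loss does to transcription in the heart. The controls were Mesp1Cre;Hira+/fl and the mutants Mesp1Cre;Hira-/fl, so every embryo carried the Cre driver and a floxed Hira allele, and the mutants had a null allele in place of the wild-type allele. Mesp1Cre acts in early mesoderm that gives most of the heart, so cardiac cells of other origin, such as neural crest, are not its target. The labels do not say whether the 3 libraries of a group came from separate embryos or litters, and p-values here measure the spread between these libraries. From Y-linked reads, 3 of 3 E11.5 control libraries were male against 1 of 3 E11.5 mutant libraries, and 1 of 3 in each E12.5 group.

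Recovered whole counts summed to between 11994148 and 17483982 per library. CPM below is a count per 1e+06 reads of its library after TMM scaling over all 12 libraries, and RPKM is the CPM per kilobase of gene length. The targeted gene Hira had 60.7 to 86.5 CPM in controls and 57.0 to 79.7 in mutants. A count over the whole gene cannot show the loss of a floxed exon and does not check the genotypes. The paper reports checks of the recombination by PCR, by reads of the deleted exon in its RNA-seq and by western blot. Cardiomyocyte markers (11 genes) summed to 25229 to 34109 CPM over the 12 libraries, and none of the 11 was under 1 CPM in all libraries.

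Of all the libraries, 3 stood apart by epithelial genes. Cdh1, the epithelial cadherin, was at 11.2 CPM in E11.5 control 1, 3.59 in E11.5 mutant 1 and 9.62 in E12.5 mutant 3, and at most at 0.912 in the other libraries. Epcam, another epithelial adhesion gene, was at 9.02, 6.03 and 5.10 CPM in the same libraries and at most at 2.32 elsewhere. The list of 6 lung and foregut markers, which holds Cdh1 and Epcam themselves, summed to 21.0, 13.9 and 16.3 CPM there, against 0.676 to 3.86 elsewhere. Its lung marker Sftpc had at most 2 reads in any library and its foregut marker Foxa2 at most 2, while Nkx2-1 reached 3.21 CPM in E11.5 mutant 1. Results of the 9 genes that rest on these libraries are given with and without them, but no such fit is given for Stra6 and Cyp26a1.

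In the coordinates of the files (mm10), Rbp4 lies on chromosome 19 (38116620 to 38125321), as does Cyp26a1 (37697808 to 37701528), and Crabp1 (54764748 to 54773110) and Stra6 (58063788 to 58153996) lie on chromosome 9. Crabp2 is on chromosome 3 (87948666 to 87953376), Dhrs3 on chromosome 4 (144892827 to 144928209), Cyp26b1 on chromosome 6 (84571414 to 84593908) and Rara on chromosome 11 (98927818 to 98974942). Values count reads over the whole gene. Stra6 overlaps Ccdc33 on the opposite strand with 0 exonic bases in common.

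Per length, the 9 genes spanned a wide range of levels. The mean RPKM over the 12 libraries (± SD, n = 12) was 17.5 ± 12.1 for Crabp1, 12.6 ± 2.07 for Rara, 11.4 ± 2.03 for Rarb, 6.25 ± 2.23 for Dhrs3 and 5.64 ± 3.78 for Crabp2. It was 2.49 ± 0.726 for Cyp26b1, 1.51 ± 0.369 for Rbp4, 0.277 ± 0.240 for Stra6 and 0.251 ± 0.230 for Cyp26a1. Rarb was above Dhrs3, and Rbp4 above Stra6, in 12 of 12 libraries. Other neighbours in this order did not separate: Crabp1 was above Rara in 8 of 12 libraries, Rara above Rarb in 8, Dhrs3 above Crabp2 in 8, Crabp2 above Cyp26b1 in 9, Cyp26b1 above Rbp4 in 11 and Stra6 above Cyp26a1 in 6. Crabp1 was thus the most abundant of these transcripts on average and also the most uneven of the well measured ones, with a 9.41-fold range of CPM, while Rarb varied by 1.83-fold and Rara by 1.93-fold.

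**Figure D1:**
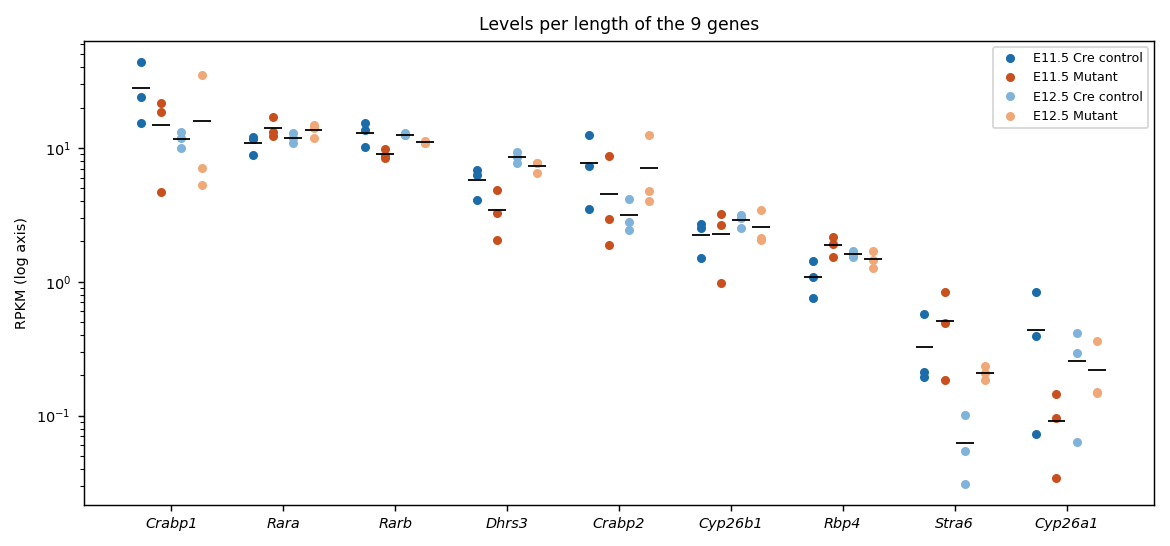
RPKM (log axis) of the 9 genes in each library, ordered by the mean over 12 libraries, with a point per library, colour by group and a bar at the mean of 3 libraries. The receptors Rara and Rarb keep within a narrow band in all groups, Crabp1 and Crabp2 spread widely, and Stra6 and Cyp26a1 lie below 1 RPKM in every library.

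A mean of 0.5 RPKM over the libraries of a comparison was required for a test, and 7 of the 9 genes passed it in every comparison. Stra6 (181 reads in all 12 libraries) and Cyp26a1 (83 reads) did not, and they were tested only with no filter, as an alternative. A gene was called when its p from edgeR's quasi-likelihood test, adjusted by Benjamini-Hochberg over all genes tested, did not exceed 0.05 and its fold change reached 1.5.

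Between genotypes, none of these genes was called. Of the 7 tested, only Rarb had no overlap between the genotypes at both stages, with lower values in mutants. The share of all genes tested without overlap was 16.3% at E11.5 and 26.4% at E12.5. The share without overlap at both stages was not counted. At E11.5, 0 of 7 were called in mutants against controls, where 0.115% of all genes tested were called. At E12.5, 0 of 7 were called against a background of 3.03%. At an unadjusted p under 0.05, 2 of 7 passed at E11.5 (Rarb and Dhrs3) and 1 of 7 at E12.5 (Crabp2), against 10.3% and 21.3% of all genes, and 3 of 7 adjusted for stage (Rarb, Rara and Dhrs3), against 19.4%. DESeq2 called 0 at E11.5 and 1 at E12.5, Crabp2, against 2.03% and 3.56% of all genes. With both stages in a single fit and stage as a term, 0 of 7 were called against a background of 3.19%. The median log2 fold change of the 7 genes was -0.54 at E11.5, -0.12 at E12.5 and -0.08 adjusted for stage, and that of all genes tested was -0.01, 0.00 and -0.01. In whole hearts, fewer cells of a type and less RNA per cell cannot be told apart.

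Counted by libraries alone, 3 of the 7 genes had no overlap between the genotypes at E11.5 (Rbp4 and Rara higher in mutants, Rarb lower), where 16.3% of all genes tested had none. At E12.5, 2 of 7 had no overlap (Rarb and Dhrs3, both lower in mutants), against 26.4% of all genes, and Stra6, under the filter, was higher in all 3 mutants. The smallest two-sided p of an exact permutation test of 3 libraries against 3 is 0.1, so that test cannot pass 0.05 within a stage.

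**Figure D2:**
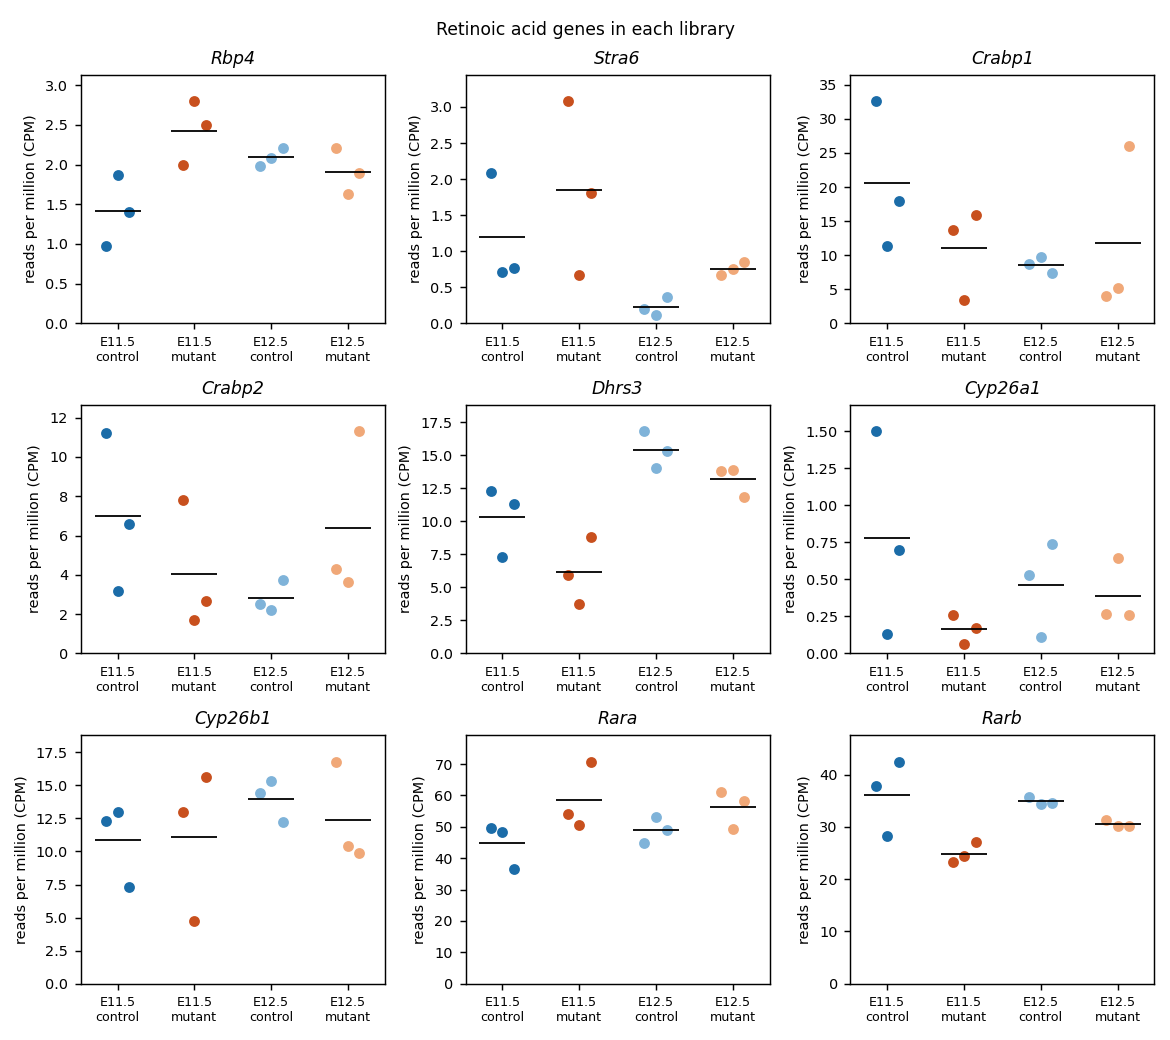
CPM of the 9 genes in each library (linear axes from 0), with a point per library and a bar at the mean of the 3 libraries of a group. Rarb is lower in the mutants than in the controls at both stages without overlap, and Crabp1 and Crabp2 each have single libraries far above the rest of their group.

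Of the receptors, Rarb had lower and Rara mostly higher values in mutants, and neither was called. Rarb stood at E11.5 at 37.8, 28.2 and 42.5 CPM in controls and 23.2, 24.4 and 27.1 in mutants, and at E12.5 at 35.7, 34.3 and 34.6 in controls and 31.4, 30.1 and 30.1 in mutants. Every mutant library was below every control library of its stage; the libraries of each E12.5 group lay close together. Adjusted for stage, the log2 difference of Rarb was -0.36 (SE 0.10, 95% interval -0.58 to -0.15, 0.777-fold), with an edgeR adjusted p of 0.0453. It passed the threshold on p and not the one on fold size. An exact permutation of genotypes within each stage (n = 3 against 3 in each) gave p = 0.00500, two-sided, which is the smallest it can give. Any gene without overlap in the same direction at both stages gets this value, and the share of all genes that do was not counted. The exact p is not adjusted for the genes examined, which were chosen with earlier results of these data known. Within a stage the log2 difference was -0.54 (SE 0.17, edgeR adjusted p 0.285) at E11.5 and -0.18 (SE 0.08, edgeR adjusted p 0.242) at E12.5.

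The adjusted p of Rarb stood close to its threshold. Leaving out any library other than E11.5 control 2 raised it above 0.05, to between 0.0616 and 0.101, and without the 3 libraries rich in epithelial genes the log2 difference was -0.30 with an edgeR adjusted p of 0.247. With sex as a covariate it was 0.0887. The difference between the effects at the stages was 0.35 (SE 0.19, edgeR adjusted p 0.954). Exons at the 3′ end of Rarb share 1790 bases with Top2b, a topoisomerase gene on the opposite strand with 68456 reads over the libraries, and use of the strand in counting was not given in the sources used here. Top2b itself differed by -0.20 (SE 0.09, edgeR adjusted p 0.204) adjusted for stage, and its part in the Rarb value was not tested. Cushion mesenchyme markers summed to 2136 to 2327 CPM in E11.5 controls against 1397 to 1871 in the mutants of that stage, and epicardial markers to 700 to 1038 against 556 to 698. At E12.5 blood markers summed to 3557 to 5458 CPM in controls against 1896 to 2457 in mutants. The part of these cell types in the Rarb value was not tested.

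Rara, the higher of the receptors per length in 8 of 12 libraries, stood at E11.5 at 49.7, 48.3 and 36.6 CPM in controls and 54.1, 50.6 and 70.8 in mutants, and at E12.5 at 45.0, 53.2 and 49.1 in controls and 61.1, 49.2 and 58.2 in mutants. The mutants lay above all controls at E11.5, and at E12.5 mutant 2 fell among the controls. The log2 difference was 0.38 (SE 0.17, edgeR adjusted p 0.503) at E11.5, 0.20 (SE 0.10, edgeR adjusted p 0.277) at E12.5 and 0.29 (SE 0.11, 95% interval 0.06 to 0.51, edgeR adjusted p 0.132) adjusted for stage. The exact permutation p within stages was 0.02.

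**Figure D3:**
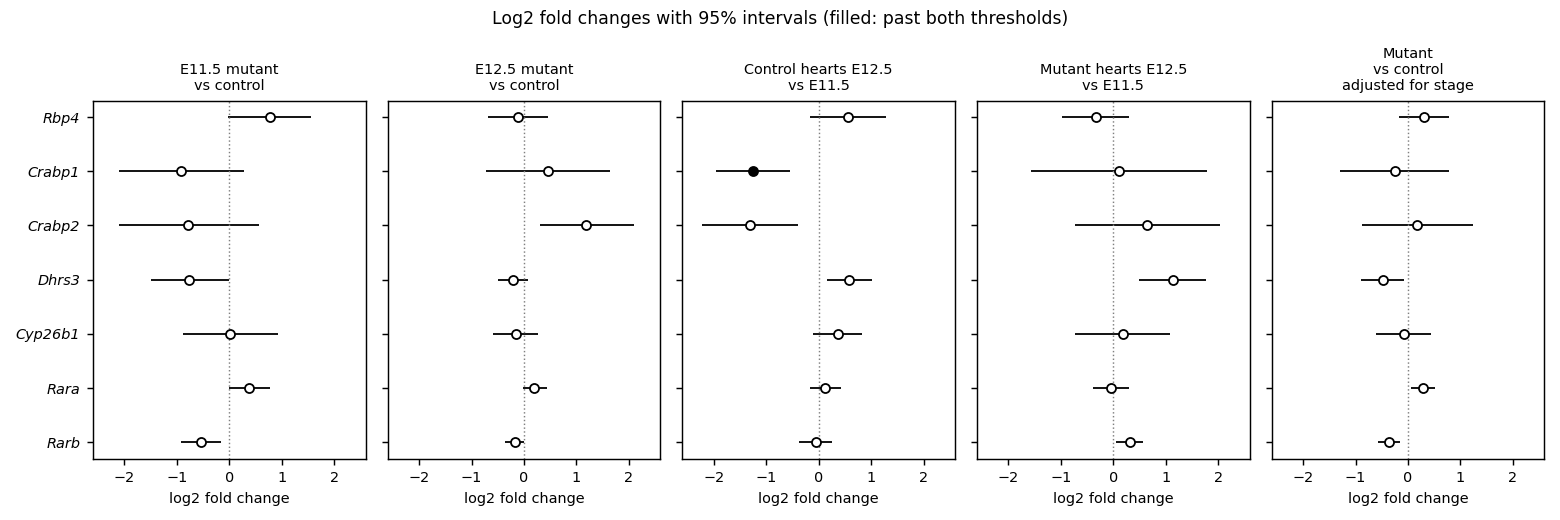
Log2 fold changes (x axis) of the 7 tested genes in 5 comparisons, with 95% intervals from the edgeR fit; a filled point is past both thresholds. Crabp1 in control hearts between the stages is the only filled point, and intervals are narrowest for Rara and Rarb.

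Rarb and Cyp26a1 are textbook cases of genes that retinoic acid switches on through a direct repeat near the start, and they are shown here because that repeat can be read in their promoters. In the RefSeq windows of 250 bases before and 50 after a start (GRCm38.p6), the search was for the receptor word AGGTCA or its close variants (AGTTCA, but also GGGTCA, and finally GGTTCA), in any pair on the same strand of either orientation. With a spacer of 5 bases, 2 of the 17 windows of 8 of these genes held a repeat, those of Rarb and Cyp26a1, against 0.0974% of all 32851 windows. As the repeat was already known in both genes, these shares are no test of enrichment. No window of the 8 genes held these words with spacers of 1 or 2 bases, against 0.222% and 0.268% of all windows. Crabp2 had no window and was not searched, nor were bases further from a start. The 100 bases before each start follow, 5′ to 3′ on the strand of the gene, with the repeated words in capitals. On the Cyp26a1 strand the words appear as their reverse complement.

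Rarb (chr14:16575477-16575576, minus strand): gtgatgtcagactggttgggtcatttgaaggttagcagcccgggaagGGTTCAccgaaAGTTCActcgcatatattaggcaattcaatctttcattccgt
Cyp26a1 (chr19:37697708-37697807, plus strand): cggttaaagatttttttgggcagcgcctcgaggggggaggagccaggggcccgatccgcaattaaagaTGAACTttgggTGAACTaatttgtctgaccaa

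The repeat began 53 bases before the start in Rarb and 32 in Cyp26a1. The Rarb gene model of the files (chromosome 14, 16430842 to 16575472) starts at this promoter. A match of letters is a description of the window and no measure of binding. Among all promoters, those of 31 genes held such a repeat, of which 9 were in the comparisons and 7 were tested, Rarb among them. Of these 7, 0 were called adjusted for stage (background 3.19%), and the median log2 difference was 0.12, against -0.36 for Rarb.

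Of the genes that remove retinoic acid or its precursor, Dhrs3 had the highest level per length. It stood at E11.5 at 12.3, 7.30 and 11.3 CPM in controls and 5.90, 3.71 and 8.78 in mutants, and at E12.5 at 16.8, 14.0 and 15.3 in controls and 13.8, 13.9 and 11.8 in mutants. All E12.5 libraries but E12.5 mutant 3 were above every E11.5 library, and the mutants were below all controls at E12.5. At E11.5 the genotypes overlapped through control 2 and mutant 3. The log2 difference between genotypes was -0.76 (SE 0.33, edgeR adjusted p 0.472) at E11.5, -0.21 (SE 0.13, edgeR adjusted p 0.376) at E12.5 and -0.48 (SE 0.19, 95% interval -0.89 to -0.07, edgeR adjusted p 0.168) adjusted for stage, with an exact permutation p of 0.0400 within stages.

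Cyp26b1 stood at E11.5 at 12.3, 13.0 and 7.30 CPM in controls and 13.0, 4.74 and 15.6 in mutants, and at E12.5 at 14.4, 15.3 and 12.2 in controls and 16.8, 10.4 and 9.88 in mutants. The groups overlapped at both stages. Its log2 difference was 0.02 (95% interval -0.89 to 0.93) at E11.5 and -0.16 (95% interval -0.59 to 0.26) at E12.5, with edgeR adjusted p-values of 0.994 and 0.673. The intervals leave room for a 1.5-fold change at E11.5, in either direction.

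Cyp26a1 was barely detected. At E11.5 it had 23, 2 and 10 reads in controls and 4, 1 and 2 in mutants, and at E12.5 it had 8, 2 and 12 in controls and 4, 11 and 4 in mutants. The E11.5 control libraries ranged from 0.129 to 1.5 CPM and the mutants from 0.0608 to 0.257, and the groups overlapped. With no filter, edgeR gave a log2 difference of -2.21 (SE 0.90, adjusted p 0.447) at E11.5 and -0.18 (SE 0.69, adjusted p 0.918) at E12.5, and at these counts a change could not be shown. Between the stages, the mutants at E12.5 (0.262 to 0.642 CPM) lay just above those at E11.5. Per length, Cyp26b1 was the higher of the pair in every library, with a mean of 2.49 RPKM against 0.251.

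The carriers of retinoic acid in the cytoplasm varied widely between libraries of the same group. Crabp1 stood at E11.5 at 32.6, 11.3 and 18 CPM in controls and 13.7, 3.46 and 15.9 in mutants, and at E12.5 at 8.71, 9.70 and 7.44 in controls and 3.95, 5.25 and 26.0 in mutants. Crabp2 stood at E11.5 at 11.2, 3.17 and 6.60 CPM in controls and 7.82, 1.70 and 2.67 in mutants, and at E12.5 at 2.51, 2.20 and 3.75 in controls and 4.28, 3.62 and 11.3 in mutants. For both genes E11.5 control 1 and E12.5 mutant 3 were the highest libraries of their groups, and for Crabp2 E11.5 mutant 1 was too. These are the libraries with the most Cdh1 and Epcam, and the part of epithelial cells in the Crabp values was not tested.

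**Figure D4:**
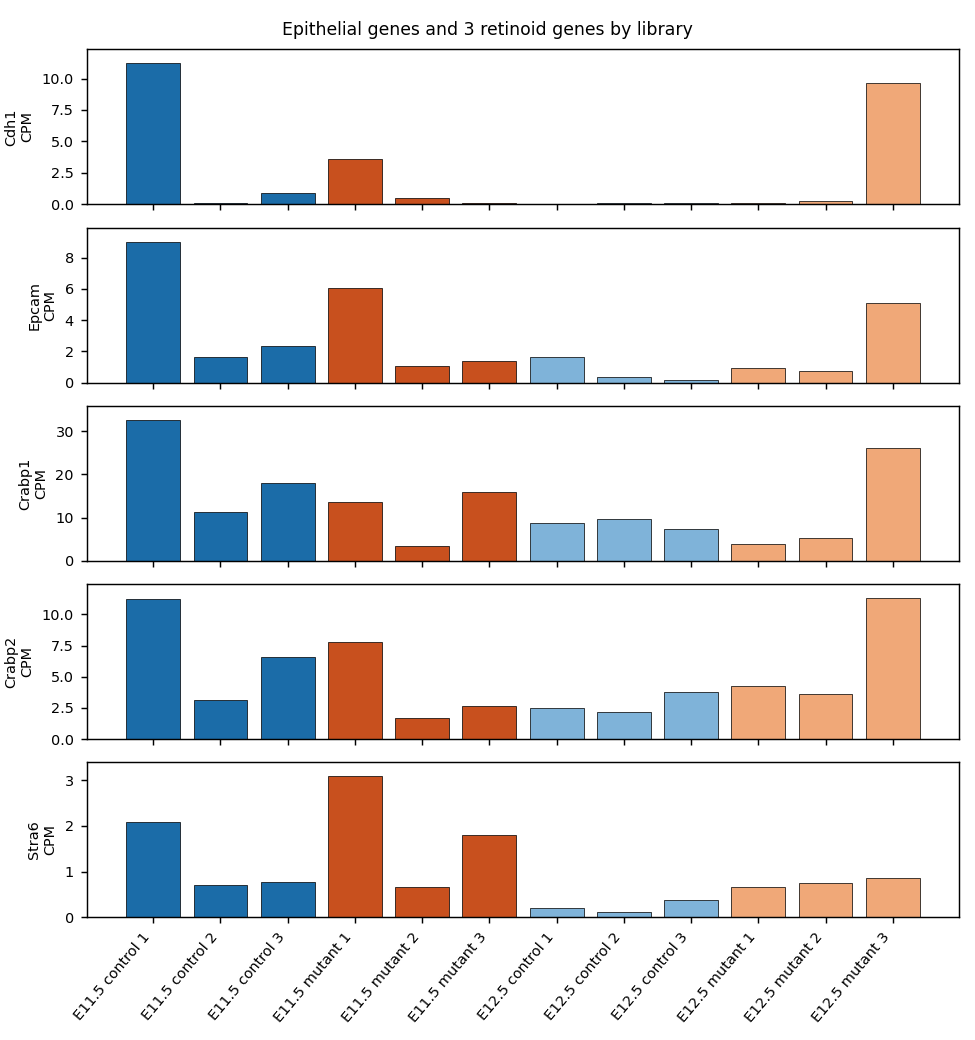
CPM (y axes, linear from 0) of the epithelial genes Cdh1 and Epcam and of Crabp1, Crabp2 and Stra6 in the 12 libraries (x axis), a bar per library coloured by group. Crabp2 is highest in E12.5 mutant 3, E11.5 control 1 and E11.5 mutant 1, the libraries where Cdh1 and Epcam are highest. Stra6 is the highest of its group in each of these 3 libraries, and lowest of all in the 3 E12.5 controls.

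Between genotypes, the log2 difference of Crabp1 was -0.92 (SE 0.53, edgeR adjusted p 0.642) at E11.5 and 0.45 (SE 0.54, edgeR adjusted p 0.674) at E12.5. The E12.5 value turned with a single library: without E12.5 mutant 3 it was -0.89 with an edgeR adjusted p of 0.0455, a call for lower Crabp1 in the remaining mutants, at 3.95 and 5.25 CPM against 7.44 to 9.70 in controls. Crabp2 differed by -0.78 (SE 0.59, edgeR adjusted p 0.768) at E11.5 and by 1.19 (SE 0.41, 95% interval 0.30 to 2.09, edgeR adjusted p 0.121) at E12.5. Control 3 and mutant 2 were the E12.5 libraries that overlapped. Without the epithelial libraries the difference was 0.49 (edgeR adjusted p 0.382) at E12.5, and at E11.5 it was -1.16 (edgeR adjusted p 0.651) for Crabp2 and -0.60 (edgeR unadjusted p 0.313) for Crabp1. The difference of the genotype effects between the stages was 1.95 (SE 0.83) for Crabp2, with an unadjusted p of 0.0351 and an edgeR adjusted p of 0.954.

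In the supply of retinol, Rbp4 and its receptor Stra6 were low. Rbp4 stood at E11.5 at 0.980, 1.87 and 1.40 CPM in controls and 1.99, 2.8 and 2.50 in mutants, and at E12.5 at 1.98, 2.09 and 2.21 in controls and 2.21, 1.63 and 1.9 in mutants. The E11.5 mutants lay above all E11.5 controls and the E12.5 groups overlapped. The log2 difference was 0.77 (SE 0.35, edgeR adjusted p 0.502) at E11.5 and -0.12 (SE 0.26, edgeR adjusted p 0.830) at E12.5, on 15 to 46 reads per library. The effects at the stages differed by -0.90 (SE 0.40, unadjusted p 0.0399, edgeR adjusted p 0.954). Liver makes Rbp4 in quantity, and the list of 12 liver markers summed to 5.17 to 28.3 CPM in E11.5 controls and 4.82 to 63.2 in E11.5 mutants. The part of liver RNA in the Rbp4 values was not tested.

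Stra6 had 32, 11 and 11 reads in controls and 48, 11 and 21 in mutants at E11.5, and 3, 2 and 6 in controls and 10, 13 and 13 in mutants at E12.5. In CPM, the E12.5 controls (0.113 to 0.369) were below every other library, the E12.5 mutants (0.669 to 0.851) among them. E11.5 control 1, E11.5 mutant 1 and E12.5 mutant 3, rich in Cdh1 and Epcam, had the most Stra6 of their groups. The part of epithelial cells in the Stra6 values was not tested. With no filter on low values, edgeR gave a log2 difference between genotypes of 1.74 (SE 0.61, adjusted p 0.122) at E12.5 and 0.63 (SE 0.57, adjusted p 0.821) at E11.5. At E12.5 the groups thus did not overlap, but the difference did not pass the test, on counts of 2 to 13 reads.

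Between the stages, Crabp1 fell in control hearts and no other of the 7 tested genes passed both thresholds. In controls, 1 of 7 was called (Crabp1), against a background of 5.31% of all genes, and 3 of 7 had no overlap between the stages (Rbp4 and Dhrs3 higher at E12.5, Crabp1 lower), against 37.4%. At an unadjusted p under 0.05, 3 of 7 passed in controls (Crabp1, Crabp2 and Dhrs3), against 32.7% of all genes. In mutants, 0 of 7 were called against a background of 0.523%, with 2 at an unadjusted p under 0.05 (Dhrs3 and Rarb, against 9.13% of all genes) and 1 called by DESeq2 (Dhrs3, against 1.85% of all genes), and 2 of 7 had no overlap (Dhrs3 and Rarb, both higher at E12.5), against 17.4%. Stage and collection of the samples cannot be told apart. The comparisons between stages use the same libraries as those between genotypes and are no separate evidence.

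Crabp1 in controls fell by 1.26 on the log2 scale from E11.5 to E12.5 (SE 0.32, 95% interval -1.96 to -0.55, 0.418-fold, edgeR adjusted p 0.0356). The call depended on single libraries. It held without E11.5 control 2 and was lost when any other control library was left out, with adjusted p-values of 0.0687 to 0.147, while the log2 difference without E11.5 control 3 or any E12.5 control was -1.16 to -1.35. With sex as a covariate the difference was -1.47 with an edgeR adjusted p of 0.425. Without E11.5 control 1, the library with the most Cdh1, the difference was -0.76 with an edgeR adjusted p of 0.0804, and the E11.5 controls left, at 11.3 and 18 CPM, were still above all E12.5 controls. In mutants the log2 difference of Crabp1 was 0.11 (SE 0.74, edgeR adjusted p 0.966).

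Within each genotype, every E12.5 library had more Dhrs3 than every E11.5 library of that genotype, and neither difference was called. The log2 difference was 0.58 (SE 0.19, edgeR adjusted p 0.0724) in controls and 1.13 (SE 0.28, edgeR adjusted p 0.189) in mutants. Crabp2 differed by -1.31 (SE 0.41, edgeR adjusted p 0.0624) in controls, or -0.79 (edgeR adjusted p 0.203) without E11.5 control 1, and by 0.64 (SE 0.61, edgeR adjusted p 0.788) in mutants. Rarb differed by -0.05 (SE 0.14, edgeR adjusted p 0.832) in controls and by 0.31 (SE 0.11, edgeR adjusted p 0.420) in mutants, in which every E12.5 library was above every E11.5 library. Stra6 in controls was lower in every E12.5 library, and with no filter edgeR gave it a log2 difference of -2.37 (SE 0.64, adjusted p 0.0265). That value is past both thresholds, but only in this alternative with no filter. That fit is not given without E11.5 control 1, which had 32 Stra6 reads against 11 in each other E11.5 control.

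A test of whether the genotype effect differed between the stages called 0 of 7 genes. It called 0% of all 12270 genes tested, with 552 of them (4.50%) and 2 of the 7 genes (Crabp2 and Rbp4) at an unadjusted p under 0.05, and 42 called by DESeq2. DESeq2 called none of the 7. None of the 7 can thus be said to respond to the mutation at E11.5 and not at E12.5, or the reverse.

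Other genes of the pathway were read from 4 lists. Of the 21 genes of retinoid synthesis and storage, 12 were tested between genotypes and 0 were called at either stage. The share of all genes called was 0.115% at E11.5 and 3.03% at E12.5. Aldh1a2, the main retinoic acid synthase of the embryo, stood at E11.5 at 114 ± 18.2 CPM (SD, n = 3) in controls and 54.1 ± 16.6 in mutants, and at E12.5 at 73.1 ± 21.5 and 81.5 ± 10.3. Every E11.5 mutant library was below every E11.5 control library, with a log2 difference of -1.08 (SE 0.23, edgeR adjusted p 0.131), against 0.17 (SE 0.17, edgeR adjusted p 0.603) at E12.5. The difference of the effects was 1.23 (SE 0.33, unadjusted p 0.00232, edgeR adjusted p 0.497). Aldh1a2 also marks the epicardium, whose 10 markers summed to 700 to 1038 CPM in E11.5 controls and 556 to 698 in E11.5 mutants. Aldh1a2 is itself in that sum, and the part of epicardial cells in the value was not tested.

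Aldh1a1, another retinaldehyde dehydrogenase, fell from E11.5 to E12.5 in both genotypes. It fell by 1.96 on the log2 scale in controls (SE 0.19, edgeR adjusted p 0.00200) and by 1.19 in mutants (SE 0.19, edgeR adjusted p 0.0363). Adh1, an alcohol dehydrogenase that can oxidise retinol, rose by 1.71 in controls (SE 0.45, edgeR adjusted p 0.0399). These were the only calls in that list between the stages, of 11 genes tested in controls and 12 in mutants. Of all genes, 5.31% were called in controls and 0.523% in mutants. Rdh10, which makes retinaldehyde, differed between genotypes by -0.42 (SE 0.27) at E11.5 and -0.34 (SE 0.19) at E12.5, with edgeR adjusted p-values of 0.694 and 0.341.

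Of the 9 other genes of retinoid binding and uptake, 6 were tested and 0 were called in any of the 6 comparisons. Over all genes, 0% to 5.31% were called in them. At an unadjusted p under 0.05, 3 passed at E11.5 (Rbp2, Rbp7 and Lrp2), against 10.3% of all genes, and 2 at E12.5 (Fabp5 and Ttr), against 21.3%. These 5 were named after their values were seen. Fabp5, a fatty acid binding protein that also carries retinoic acid, differed at E12.5 by 0.31 (SE 0.07, edgeR adjusted p 0.0358), under the fold threshold. Of the list of 12 other receptors and cofactors, 11 were tested and 0 were called between genotypes. The share of all genes called was 0.115% at E11.5, 3.03% at E12.5 and 3.19% adjusted for stage. The member not tested was Cyp26c1, a retinoic acid hydroxylase and neither a receptor nor a cofactor, at no more than 3 reads in any library. Rarg, the receptor not among the 9 genes, differed by -0.20 (SE 0.39) at E11.5 and -0.04 (SE 0.16) at E12.5, and Rxra, the partner of the receptors, by 0.04 (SE 0.13) and -0.17 (SE 0.08), with edgeR adjusted p-values of 0.935, 0.904, 0.965 and 0.274. In controls, 2 of the 11 genes tested on that list were called between the stages, against 5.31% of all genes. Ncoa1, a coactivator, rose by 0.82 (SE 0.13, edgeR adjusted p 0.0112) and Nrip1, a corepressor, by 0.84 (SE 0.22, edgeR adjusted p 0.0369). Under the fold threshold, Ncor1 and Ncoa2 rose by 0.43 (edgeR adjusted p 0.0482 and 0.0487) and Ncoa3 by 0.41 (edgeR adjusted p 0.0436). These 3 were named after their values were seen. Of the 11, 8 were higher and 3 lower at E12.5, and 5 had an unadjusted p under 0.05, against 32.7% of all genes.

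Of the 18 genes known to respond to retinoic acid, 11 were tested between genotypes, with 0 called at E11.5, against 0.115% of all genes, and 1 at E12.5, against 3.03%. Hoxb3, a homeobox gene, was at E12.5 at 3.16 ± 0.461 CPM (SD, n = 3) in controls and 6 ± 0.598 in mutants, and rose by 0.94 on the log2 scale (SE 0.20, edgeR adjusted p 0.0251). At E11.5 its values were 7.67 ± 6.52 and 6.36 ± 4.01 CPM, with a log2 difference of -0.26 (SE 0.60, edgeR adjusted p 0.945). The median log2 fold change of that list was -0.09 at E11.5 and 0.12 at E12.5. Neural markers, a list of 7, were higher in all mutants than in all controls, at 36.2 to 67.0 CPM against 20.7 to 30.6 at E11.5 and 43.4 to 51.9 against 16.9 to 22.0 at E12.5, and their part in these values was not tested.

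**Figure D5:**
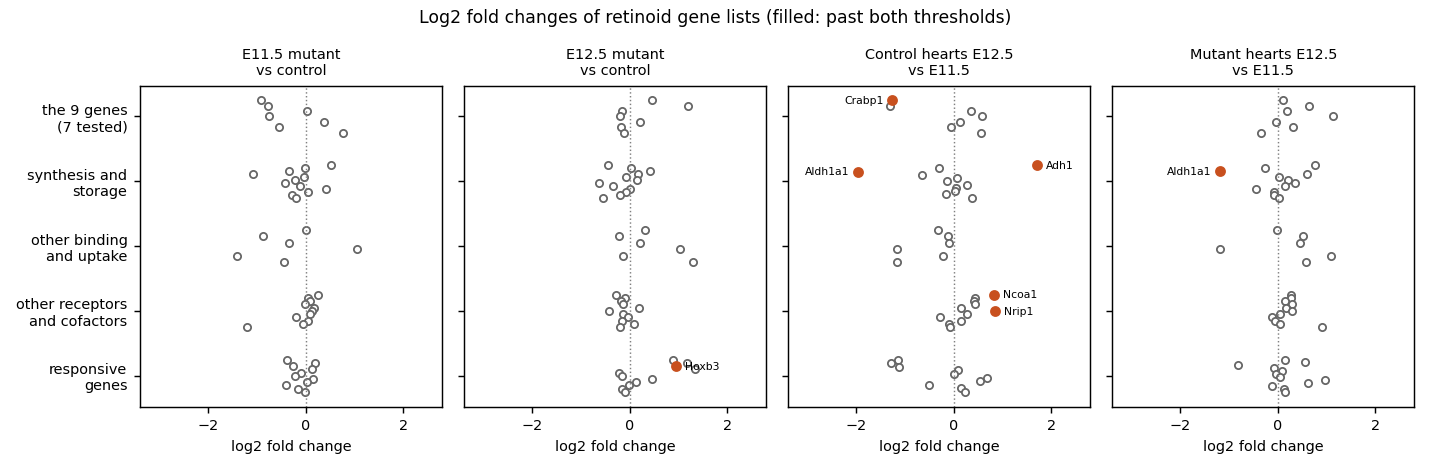
Log2 fold changes (x axis) of the 9 genes and of 4 lists of other retinoid genes in 4 comparisons, a point per tested gene; filled points are past both thresholds and named. Between genotypes the only filled point is Hoxb3 at E12.5, and between the stages in controls Crabp1, Aldh1a1, Adh1, Ncoa1 and Nrip1 are filled.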

How the data were processed

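RNA of whole hearts was sequenced by the authors, aligned to mm10 with Bowtie2 and normalised with DESeq, per the labels and the study's methods; the counting program, the annotation and the strand were not given in the sources used here. The design text names a GAIIx and the paper a NextSeq 500. The deposited values called RPKM are scores: each is a whole count times gene length times a library factor. The authors' average counts of each group, deposited in the unit of expected counts, allowed whole counts of 19424 genes to be recovered, with at most 1.37e-05 from a whole number. The authors' fold changes and p-values were not used. Tests took genes whose mean RPKM reached 0.5 and were run with edgeR 4.0.16 (quasi-likelihood, TMM) in R 4.3.3; 95% intervals come from its SE and degrees of freedom. DESeq2 1.42.0, limma 3.58.1, other filters, sex, the replicate number and leaving out each library were alternatives. The recovery and the tests were tested on simulated data. Named are the 9 genes, listed genes past the thresholds, and Aldh1a2, Rdh10, Rarg and Rxra, besides the genes said above to be named after their values were seen. The members and lists were chosen with earlier results of these data known.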

Additional observations from a re-analysis of the deposited data

How the results depend on the processing

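The 42 log2 fold changes of the 7 genes were computed under other settings, and 756 of these values kept the direction and side of the thresholds, 36 changed sign, 10 gained and 11 lost a call. The number of called genes at E11.5 and in the test between stages was 0 under every setting. At E12.5 it was 1 with DESeq2 (Crabp2), 1 without the 3 libraries rich in epithelial genes (Crabp1) and 0 to 1 with single libraries left out. Of those 3, only E12.5 mutant 3 is in the E12.5 comparison and only E11.5 control 1 in that of controls between stages. There, leaving out the epithelial libraries and leaving out that library are the same fit, counted under both names. In controls between stages it was 3 with no filter: Crabp1, Crabp2 and Stra6, the last of which is not among the 7. There it was 2 with DESeq2, 0 with limma at each pseudocount (Crabp1 adjusted p 0.0503 to 0.0511) and 0 with sex as a covariate. It was 0 with all 12 libraries in a single fit, 0 without the epithelial libraries and 0 to 2 with single libraries left out. In mutants between stages it was 1 with DESeq2 (Dhrs3) and 0 to 1 with single libraries left out, and adjusted for stage 1 with no fold threshold (Rarb). The adjusted p of Rarb, 0.0453, was 0.0548 at a mean RPKM of at least 5, 0.0539 with median-ratio factors, 0.0887 with sex, 0.247 without the epithelial libraries and 0.0260 to 0.101 with single libraries left out. The cause of these changes was not tested.

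Signs changed for values near 0 or resting on single libraries. Cyp26b1 at E11.5 was -0.05, -0.08 and -0.03 with limma at pseudocounts of 0.5, 0.1 and 1, -0.01 without the epithelial libraries and -0.30 to 0.39 with single libraries left out. Crabp1 at E12.5 was -0.04, -0.05 and -0.02 with limma, -0.89 without the epithelial libraries and -0.89 to 0.86 with single libraries left out. Crabp1 in mutants between stages was -0.14, -0.15 and -0.13 with limma, -1.02 without the epithelial libraries and -1.23 to 0.51 with single libraries left out. In mutants between stages, leaving out single libraries gave -0.21 to 0.49 for Cyp26b1, -0.16 to 0.11 for Rara and -0.05 to 1.57 for Crabp2, and in controls -0.20 to 0.08 for Rarb. Adjusted for stage it gave -0.23 to 0.54 for Crabp2 (-0.23 without the epithelial libraries), -0.91 to 0.05 for Crabp1 and -0.22 to 0.07 for Cyp26b1. The difference between stages was -0.25 for Crabp1 and 0.02 for Cyp26b1 without the epithelial libraries, and -0.56 to 0.13 for Cyp26b1 with single libraries left out.

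Whether the replicate numbers pair the libraries was not settled. Between genotypes the same-number correlations at E11.5 were -0.03, 0.43 and 0.29, against at most 0.24, 0.22 and -0.19 with another number. At E12.5 they were 0.05, 0.07 and 0.02, against at most 0.04, 0.01 and 0.03. Replicates 2 and 3 at E11.5 were thus closest to their own number. With the replicate block, 1 gene was called at E12.5 (Crabp2), 3 in controls between stages (Crabp1, Crabp2 and Dhrs3) and 0 in the other comparisons, the adjusted p of Rarb was 0.0465, and Cyp26b1 at E11.5 was -0.08 and Crabp1 in mutants between stages -0.11. Leaving out the epithelial libraries was chosen after seeing the data. Over all genes, calls under settings other than leaving out single libraries ranged from 0 (without the epithelial libraries) to 248 (DESeq2) around 14 at E11.5, from 127 to 628 around 371 at E12.5, from 19 (sex as a covariate) to 1390 (no fold threshold) around 650 in controls between stages, from 2 to 226 around 64 in mutants and from 119 to 837 around 391 adjusted for stage. At 1 to 48 reads per library, Stra6 and Cyp26a1 allow no test of a moderate change.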

Other observations

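As a description with no test, the genes whose log2(CPM + 0.5) followed each member most closely over the 12 libraries were taken from all genes tested. The libraries share groups, so a likeness here holds genotype and stage. Rarb was most like Mgst1, a glutathione transferase (Pearson r 0.974, n = 12), Camk1 and Itm2b (both 0.953). Rara was most like Abcf1 (0.949), Hpdl (0.926) and Hspb7 (0.920), the last a heat shock protein of heart muscle at 379 to 690 CPM. Dhrs3 was most like Nrep (0.948), Cdhr4 (0.945) and Fcgrt (0.929). Crabp2 was most like Lrig3 (0.918), then the epithelial cadherin Cdh1 (0.881) and Ptpru (0.877). Crabp1 was most like Slc39a6 (0.884), the matrix gene Tnc (0.852) and Pmm1 (0.841). Cyp26b1 was most like Rgma (0.891), Ldb1 and Lad1 (both 0.884). Rbp4 was most like Tubg2 (0.868), the Notch ligand Dll4 (0.846) and Fbxo47 (0.824).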
